A study of Homo sapiens with 3 samples.

Results

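Markers of trophoblast and amnion, the extraembryonic lineages that form the placenta and the inner fetal membrane, were examined in pluripotent cultures of H9, an established line of human embryonic stem cells. The set was defined by name as 8 genes, TFAP2A, TFAP2C, GATA3, GATA2, HAND1, CDX2, VTCN1 and KRT7, and its probe sets were those annotated with 1 of these symbols alone. Each gene had 1 probe set, which gave 8 probe sets of 33297 and 8 genes of 18417 named. RNA came from 3 sources of untreated H9 cells, with 1 array each: the polysome-bound fraction, which holds mRNAs carrying several ribosomes, the polysome-unbound (polysome-free) fraction, and total RNA of the cells. The labels give no genetic change or agent for any source. All RNA is of a single line, and no label says whether the polysome pools and the total RNA came from the same cultures. With 1 array per source no difference has a replicate check, and no p-value is given.

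Trophoblast is the first lineage that separates from the embryo proper, and human pluripotent cells exposed to bone morphogenetic protein (BMP) signals can switch on many of its genes and those of amnion, which overlap widely. TFAP2A and TFAP2C, GATA2 and GATA3 are transcription factors that act early and together in this switch, CDX2 and HAND1 are further transcription factors of trophoblast or extraembryonic tissue, and VTCN1 and KRT7 are a surface protein and an intermediate filament protein of the resulting epithelium. None of the 8 is a marker of the pluripotent state, although TFAP2C is also used by human naive pluripotent cells.

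Deposited values are on a log2 scale and are not comparable between probe sets, so each gene was compared with itself across arrays. Background was read on each array from 480 genes of specialised tissues, namely smell and taste receptors, defensins and proteins associated with hair keratins. The background line, the 95th percentile of these genes, lay at 4.40 (bound), 3.56 (unbound) and 3.76 (total RNA), and a strict line, the 99th percentile, lay at 5.94, 4.44 and 4.98. A value between the lines is called near background and a value at or below the lower line is called at background. The arrays were also offset: the medians of the 12057 genes past a filter on mean level were 7.23 (bound), 5.97 (unbound) and 6.20 (total RNA). A relative difference is the log2 difference of a gene between arrays minus the difference of these medians (1.26 for bound minus unbound, 1.03 for bound minus total, -0.23 for unbound minus total), and 2-fold means a relative difference of at least 1. All 8 genes passed the filter. Of 24 measured pluripotency genes, 20 were above the background line in total RNA, SOX2 (9.50) and LIN28A (11.10) among them.

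In total RNA, 6 of the 8 markers lay above the background line, against 63.5% of all named genes, and 4 above the strict line, against 46.9%. The 4 were TFAP2A, TFAP2C, GATA3 and VTCN1. KRT7 and GATA2 were near background, and HAND1 and CDX2 were at background. On the bound and the unbound array 8 of 8 were above the line (64.9% and 63.1% of all genes), but CDX2 by 0.01 on each, and 5 of 8 were above the strict line on each (47.9% and 51.4%), KRT7 joining the 4. The 3 markers HAND1, GATA2 and CDX2 did not exceed the strict line on any array.

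**Figure D1:**
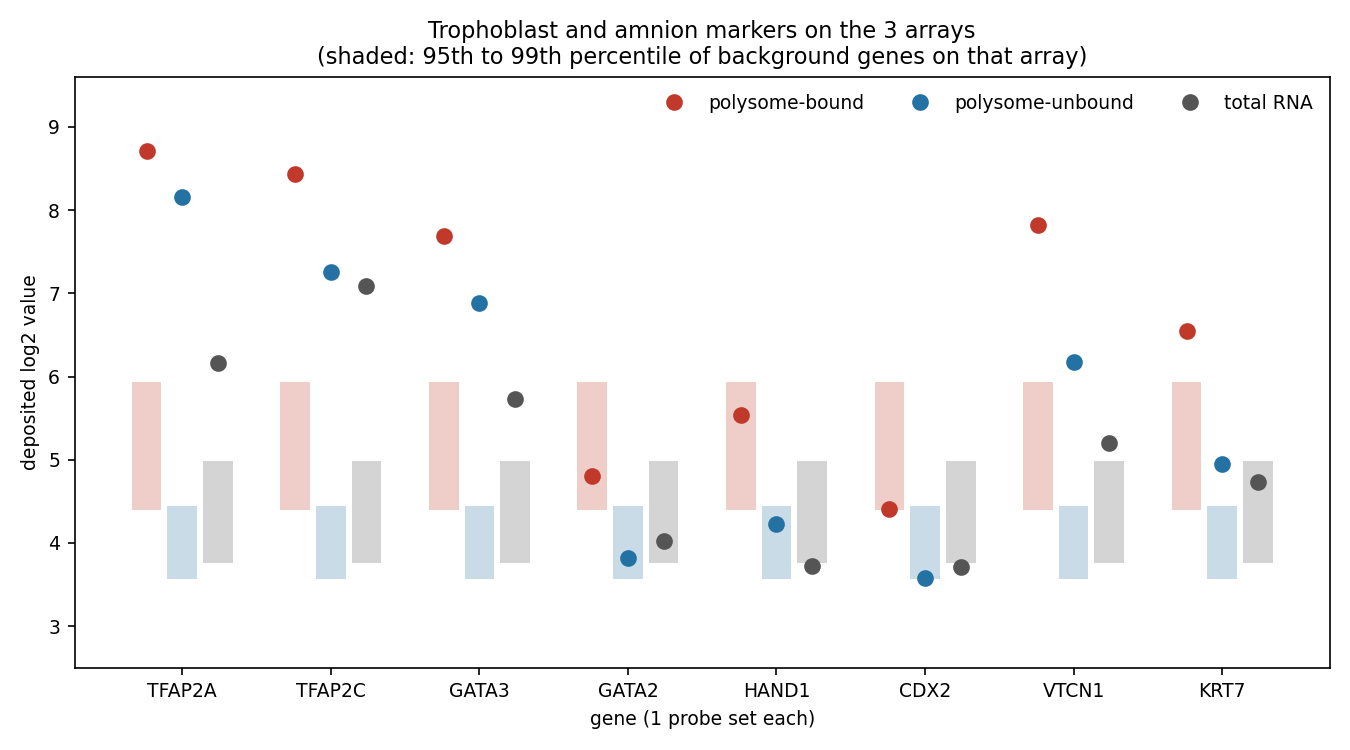
Deposited log2 values of the 8 markers (y axis) on the polysome-bound, polysome-unbound and total RNA array, 1 point per array, with shaded bars from the 95th to the 99th percentile of 480 background genes on that array. TFAP2A, TFAP2C, GATA3 and VTCN1 are above the shading on all 3 arrays, whereas GATA2, HAND1 and CDX2 lie within or just under it.

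Relative to total RNA, 2 of the 8 markers were 2-fold higher in bound RNA, against 2.66% of the 12057 genes, and 3 in unbound RNA, against 8.08%. A higher level than total RNA in both pools is no measure of loading on polysomes, for which the pools are compared with each other. TFAP2A and VTCN1 were more than 2-fold higher in both pools and GATA3 was so in unbound RNA, while TFAP2C, KRT7 and HAND1 were higher by less and GATA2 and CDX2 had relative differences between -0.34 and 0.09. Between the pools, no marker was 2-fold apart.

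TFAP2A, which encodes the transcription factor AP-2alpha, had log2 values of 8.71 in bound, 8.16 in unbound and 6.16 in total RNA. Set against the array medians, these were 1.48 above, 2.19 above and 0.04 below. After centring, its own value was thus highest in unbound and lowest in total RNA. The relative difference was 1.52 for bound minus total (2.86-fold) and 2.23 for unbound minus total (4.69-fold), which placed it at ranks 83 and 101 of 12057. For bound minus unbound it was -0.71 (0.611-fold), the lowest of the 8.

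TFAP2C encodes AP-2gamma, a paralog that binds the same motif. Its values were 8.43 in bound, 7.25 in unbound and 7.08 in total RNA. The relative differences were 0.32 for bound minus total, 0.40 for unbound minus total and -0.08 for bound minus unbound. All 3 values were above the strict line, so these small differences are not those of a gene at background. The ratio of TFAP2A to TFAP2C, in which any offset between arrays cancels, was 2.30-fold higher in bound and 3.55-fold higher in unbound than in total RNA. A further paralog, TFAP2B, had 7.12 in bound, 6.05 in unbound and 4.14 in total RNA, where it was near background, with relative differences of 1.95 and 2.15 to total RNA. TFAP2E had relative differences of -0.17 and 0.04 to total RNA, and TFAP2D was below the background line on every array.

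GATA3, a zinc finger factor of early trophoblast, had values of 7.69 in bound, 6.88 in unbound and 5.73 in total RNA. It was 0.46 above the array median in bound, 0.91 above it in unbound and 0.46 below it in total RNA. Its relative difference was 0.93 for bound minus total, just short of 2-fold, 1.37 for unbound minus total (2.59-fold) and -0.45 for bound minus unbound. GATA2, which shares its DNA motif and is also a factor of blood progenitors, had 4.80 in bound, 3.81 in unbound and 4.03 in total RNA. These were near background on each array, and the relative differences to total RNA were -0.26 for bound and 0.02 for unbound. The ratio of GATA3 to GATA2 was 2.27-fold higher in bound and 2.56-fold higher in unbound than in total RNA, with the limit that GATA2 was near background throughout. Of the other family members, GATA6 had a relative difference of -1.02 and GATA4 of 0.41 for bound minus total, GATA5 of -0.29, and GATA1 was below the background line on every array.

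HAND1, a basic helix-loop-helix factor needed for trophoblast giant cells in mouse, had 5.54 in bound, 4.23 in unbound and 3.72 in total RNA. Since it was at background in total RNA, its relative level was at least 1.68-fold higher in bound and at least 1.62-fold higher in unbound RNA, and both pool values were themselves near background. Its paralog HAND2 had 4.04, 3.25 and 3.74, below the line on each array. CDX2, a homeobox factor of mouse trophectoderm and of gut, had 4.41 in bound, 3.58 in unbound and 3.72 in total RNA, within 0.05 of the background line on every array. No level of CDX2 could be told from background. Its relative differences were -0.43 for bound minus unbound and -0.34 for bound minus total. Both lay between the medians of the background genes (-0.55 and -0.62) and those of all genes past the filter (-0.07 and -0.14). CDX4 was below the line on every array, and CDX1 (4.46, 3.77 and 4.24) was near background.

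VTCN1, the surface protein B7-H4 that dampens T cell responses and marks trophoblast and amnion-like cells made from stem cells, had 7.82 in bound, 6.17 in unbound and 5.20 in total RNA. It was 0.59 above the array median in bound, 0.21 above it in unbound and below it in total RNA. The relative difference was 1.59 for bound minus total (3.01-fold), rank 67 of 12057 and the highest of the 8, and 1.21 for unbound minus total (2.31-fold). For bound minus unbound it was 0.39. VTCN1 exceeded TFAP2A by 0.07 for bound minus total, but their ratio was 2.14-fold higher in bound than in unbound RNA.

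KRT7, a keratin of simple epithelia that is used to recognise trophoblast, had 6.55 in bound, 4.95 in unbound and 4.73 in total RNA, the last near background. Its relative differences were 0.79 for bound minus total, 0.45 for unbound minus total and 0.34 for bound minus unbound. KRT8 and KRT18, simple keratins that pluripotent cells also express, had values of 11.42 and 11.64 in bound, 10.99 and 11.21 in unbound, and 11.17 and 11.20 in total RNA. For bound minus unbound both had a relative difference of -0.83, so the ratio of KRT7 to either was 2.25-fold higher in bound than in unbound RNA. KRT19 had a relative difference of -0.24 there. KRT23 had the same signs as KRT7, at 0.86 for bound minus total, 0.35 for unbound minus total and 0.51 for bound minus unbound, but its unbound and total RNA values were at background. KRT20 was below the line on every array.

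**Figure D2:**
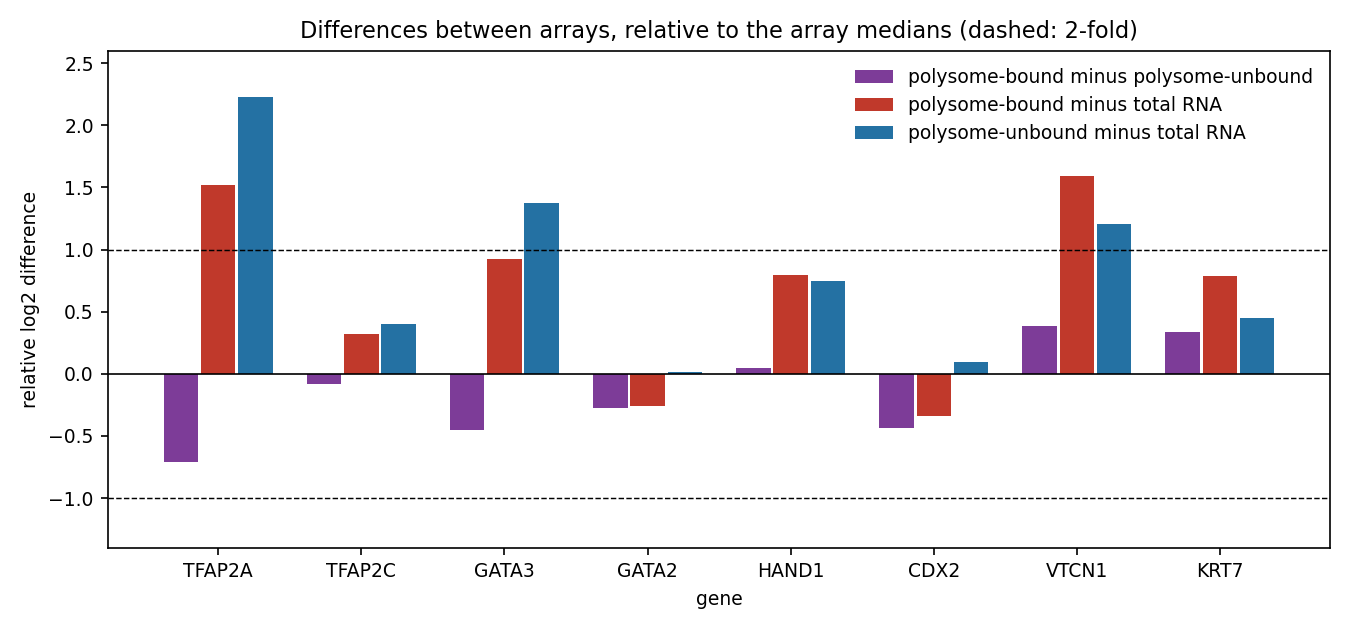
Relative log2 differences (y axis) of the 8 markers in 3 comparisons, 1 bar per comparison, with dashed lines at 2-fold. TFAP2A and VTCN1 pass the upper line in both comparisons with total RNA and GATA3 in that of unbound with total RNA, and no bar for bound minus unbound reaches a line.

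Bound was set against unbound RNA to see how far the marker transcripts were held by polysomes. None of the 8 markers was 2-fold apart, against 16.3% of the 12057 genes. Relative differences ran from -0.71 (TFAP2A) to 0.39 (VTCN1), with a median of -0.18, and the median over all 12057 genes was -0.07. VTCN1, KRT7 and HAND1 were above zero, 3 of 8 against 46.2% of all genes, and the other 5 below, TFAP2C at about the median of all genes. CDX2 and GATA2, among these 5, were near background, where the background genes themselves had a median of -0.55. As deposited, without removal of the offset, all 8 values were positive and TFAP2C, VTCN1, HAND1 and KRT7 passed 2-fold on the bound side, as did 61.4% of all genes, so the direction of 5 of the 8 markers depends on the scaling.

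Against total RNA, 2 of 8 markers were 2-fold higher in bound RNA, TFAP2A and VTCN1, where 2.66% of the 12057 genes were, and none was 2-fold lower (6.43% of all). The median of the 8 was 0.79, against -0.14 for all genes. In unbound RNA 3 of 8 were 2-fold higher, TFAP2A, VTCN1 and GATA3, where 8.08% of genes were, none was 2-fold lower (10% of all), and the median was 0.60 against -0.07. The 8 were chosen when it was known from these data that TFAP2A and VTCN1 lie above total RNA. The shares of all genes are therefore given for description and are no independent test. TFAP2A and VTCN1 were 2-fold higher in both pools, as were 1.13% of all genes. These comparisons share the total RNA array, so a low value on that array raises both. The share of genes that were 2-fold higher in bound RNA was larger among genes dim in total RNA: it was 4.96% of the 3426 genes at or below the strict line there and 1.75% of the 8631 genes above it. For unbound RNA the shares were 10.1% and 7.28%. TFAP2A, VTCN1 and GATA3 belong to the brighter class, and HAND1, KRT7, GATA2 and CDX2 to the dimmer one. Kit and source cannot be told apart here, because total RNA was purified with another column kit than the polysome pools.

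**Figure D3:**
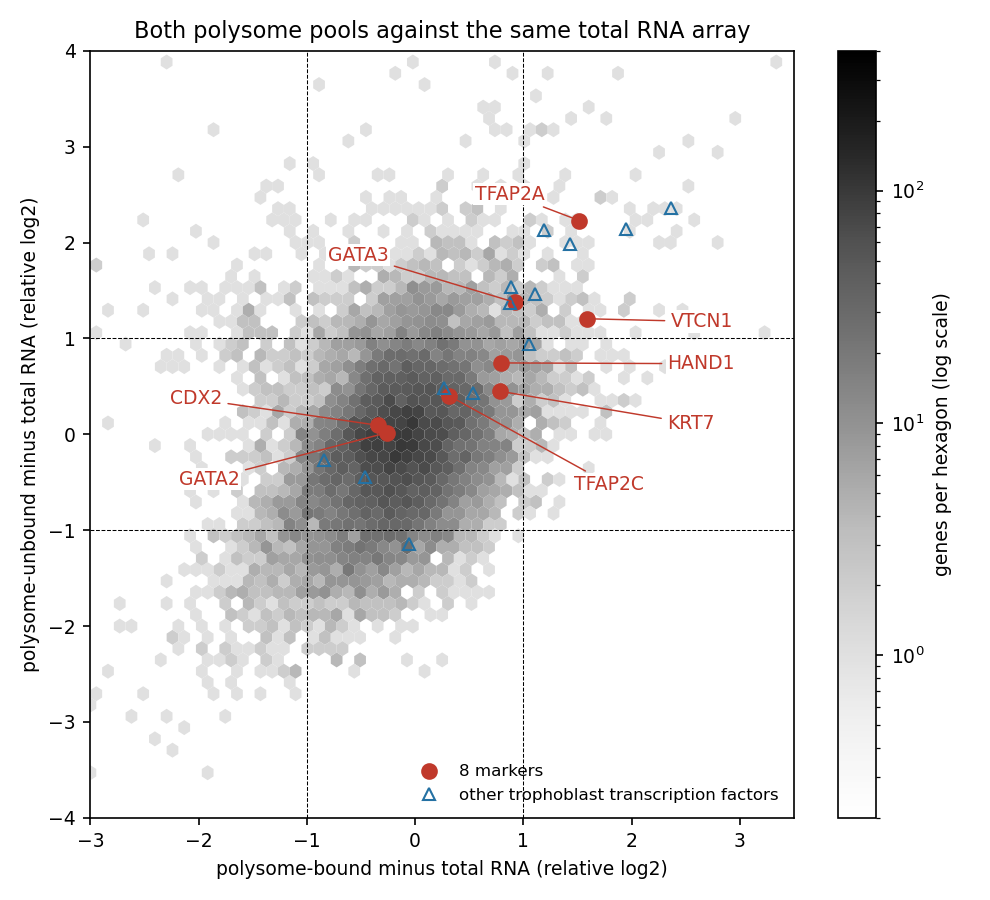
Relative log2 difference to total RNA of polysome-bound (x axis) and polysome-unbound RNA (y axis). Grey hexagons count the 12057 genes past the level filter (a few lie beyond the axes), red points are the 8 markers, open triangles are other trophoblast transcription factors past the filter, and dashed lines mark 2-fold. TFAP2A and VTCN1 lie in the upper right corner with several of the triangles, and GATA2 and CDX2 in the dense centre. Both axes use the same total RNA array.

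Genes with the most similar profile over the 3 arrays were found by distance in the plane of the relative differences to total RNA. For TFAP2A only 3 genes lay within 0.25, the nearest being CYBRD1 (distance 0.13) and SPMIP5 (0.18). For VTCN1 there were 15, led by SLC16A14 (0.12) and the small nucleolar RNA SNORD78 (0.13), and for GATA3 there were 55, led by ZNF382 (0.02) and the homeobox gene DLX3 (0.05). KRT7 had 149, with SYTL5 and ACP3 nearest, TFAP2C had 601, with ANKS3 and CFAP300 nearest, and GATA2 had 1326, with CCDC122 and PLEKHO1 nearest. These counts restate the relative differences already given. A gene far from the bulk, such as TFAP2A or VTCN1, has few neighbours, and a gene within it, such as TFAP2C or GATA2, has many. With 3 arrays, likeness rests on 2 values per gene.

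Other genes of trophoblast and amnion were then taken from lists by role, and 61 of the 72 listed were measured. The lists too were drawn up with earlier results of these data known. Counts here are over all measured genes of a list, filtered or not. Among 18 measured further trophoblast transcription factors, 6 had a bound level 2-fold above total RNA and none was 2-fold below it, against 1.74% and 4.50% of all 18417 named genes. In unbound RNA 7 were higher and 1, VGLL3 (at least 2.07-fold), was lower, against 5.33% and 6.57%. ELF5, 1 of the 6, was at background in total RNA, so the difference is at least 1.61-fold. VGLL1, TFAP2B, GRHL1 and DLX5, also of the 6, were near background there, and GRHL2 was above the strict line. DLX3, 1 of the 7, was at background in total RNA, so its unbound level is at least 2.23-fold higher. Among genes past the filter but at or below the strict line in total RNA, 4.96% were 2-fold higher in bound and 10.1% in unbound RNA. The list medians were 0.40 and 0.66, where those of all named genes were -0.36 and -0.07. VGLL1, a TEAD cofactor of human trophoblast, was highest with relative differences of 2.37 in bound and 2.36 in unbound RNA, on values of 7.71, 6.44 and 4.32 in bound, unbound and total RNA. TFAP2B followed, and then GRHL1 (1.43 and 1.99), a factor of epithelial differentiation, and DLX5 (1.19 and 2.13), a homeobox factor. Among list genes above the background line in total RNA, the lowest were EOMES (-0.84 and -0.26), TEAD4 (-0.46 and -0.44) and VGLL3 (-0.06 and -1.14), with EOMES at background in bound and VGLL3 in unbound RNA. GCM1, ASCL2, PPARG, OVOL1 and DLX4 were at background in both bound and total RNA. For bound minus unbound, VGLL3 (1.09, but at least 1.99-fold since it was at background in unbound RNA) passed 2-fold on measured values toward bound RNA and PPARG toward unbound RNA, against 4.18% and 6.87% of all named genes. PPARG was at background in bound and total RNA and near it in unbound RNA, so the difference is at least 1.67-fold.

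Of 7 measured further amnion genes, 2 exceeded total RNA 2-fold in the bound pool, the integrin subunit ITGB6 (at least 2.34-fold, since it was at background in total RNA) and the ligand BMP4 (relative difference 1.07), and POSTN, which fibroblasts also express, was lower (at least 5.43-fold, at background in bound RNA). ITGB6 and the Notch target HEY1 (1.72) were 2-fold higher in unbound than in total RNA, and POSTN was lower (at least 4.04-fold). The amnion factor ISL1 had 0.50 in bound and 0.89 in unbound RNA. Of all named genes, 1.74% were 2-fold higher and 4.5% lower in bound than in total RNA. For unbound RNA these shares were 5.33% and 6.57%.

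Genes of syncytiotrophoblast, cytotrophoblast and extravillous trophoblast gave another picture. The shares of all named genes to set beside their counts are 1.74% higher and 4.5% lower in bound RNA, and 5.33% and 6.57% in unbound RNA. Of 19 measured genes of syncytiotrophoblast hormones and cell fusion, 4 were above the background line in bound, 3 in unbound and 4 in total RNA. None was 2-fold higher in either pool than in total RNA, and 1, TFPI2, was lower in unbound RNA (-1.54). SDC1 and TFPI2 were above the strict line on every array, and CYP11A1 was near background on each. The chorionic gonadotropin alpha subunit CGA (4.01, 2.97 and 3.30) was below the line on every array. So were the fusion protein gene ERVW-1 (3.36, 2.71 and 3.02) and GCM1 (3.46, 2.59 and 3.14), the factor that drives fusion. GCM1 is counted among the trophoblast transcription factors, not in this list. CGB3, CGB5, CGB7, CGB8, CSH1 and PSG5 of this list were not measured. Of 12 measured genes of cytotrophoblast and extravillous surface, none was 2-fold higher than total RNA in either pool, 4 were lower in bound RNA (PAPPA, ITGA6, FLT1 and MMP2, with PAPPA and FLT1 at background there) and 6 in unbound RNA, where PAPPA and FLT1 were again at background and FLT1 was at least 1.81-fold lower, led by PEG10 (-2.34), ITGA6 (-2.17) and MMP2 (-2.16). Several of these, such as the laminin receptor subunit ITGA6 and the protease gene MMP2, are also used by cells outside the placenta.

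BMP ligands, inhibitors and target genes, which precede the markers in this switch, were above the background line on each array in 12 of 12 cases. Of all named genes, 64.9% were so in bound, 63.1% in unbound and 63.5% in total RNA. BMP4 is also in the amnion list and MSX2 among the trophoblast transcription factors, so the lists are not separate. For bound minus total 2 of 12 were 2-fold higher, BMP4 (1.07) and the decoy receptor BAMBI (1.03), none was lower, and 11 were above zero, with a median of 0.59. Of all genes past the filter, which all 12 passed, 2.66% were 2-fold higher, 6.43% 2-fold lower and 37.8% above zero. For unbound minus total 4 were 2-fold higher, ID1 (1.79), MSX2 (1.53), ID4 (1.43) and BAMBI (1.18), and 12 were above zero, with a median of 0.65, where 8.08% of all genes were 2-fold higher and 45.4% above zero. ID1 alone of the 12 was 2-fold lower in bound than in unbound RNA (-1.14), against 6.87% of all named genes, and none was 2-fold higher (4.18%).

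Markers of other cell types moved on the same arrays. Against total RNA, 1.74% of all named genes were 2-fold higher and 4.5% lower in bound RNA. In unbound RNA 5.33% were higher and 6.57% lower. Of 13 measured yolk sac and hepatic endoderm genes, 11 were above the background line in bound, 9 in unbound and 5 in total RNA, and the heights above the line summed to 21.98, 10.8 and 1.76 log2 units. TTR, APOA2 and APOB led for bound minus total, and ALB was below the line on every array. Of the 8 trophoblast and amnion markers the heights summed to 18.7, 16.5 and 10.4. Such sums are not scaled between arrays. The median over the genes past the filter was 7.23, 5.97 and 6.20, against background lines of 4.40, 3.56 and 3.76. That median lay further above the line in bound RNA than on the other arrays, so the sums are no measure of cell type content. For bound minus total 7 of the 13 endoderm genes were 2-fold higher, and for unbound minus total 6 were, counted on measured values that were at or near background in total RNA. Of the 24 pluripotency genes 20 were above the line on each array, and their heights summed to 76.5, 64.6 and 86.8. None was 2-fold higher in either pool than in total RNA and 9 were lower in each, with PRDM14 at -2.16 and SOX2 at -1.22 for bound minus total. Neural ectoderm had 7, 7 and 6 of 10 genes above the line and sums of 20.1, 18.8 and 16.3. PAX6, a factor of the eye and neural plate, had relative differences to total RNA of 1.72 in bound and 2.44 in unbound RNA, at ranks 53 and 65 of 12057, ahead of TFAP2A on both. OTX2, a factor of forebrain that pluripotent cells also express, was 2-fold higher in unbound RNA (1.57) and had 0.52 in bound RNA, and the filament protein gene NES was 2-fold lower in both pools (-1.74 and -2.38). Of 11 mesoderm genes 4, 4 and 5 were above the line, none was 2-fold higher than total RNA in either pool, and KDR was lower in both (-1.54 and -1.73). Of 10 definitive and primitive endoderm genes 7 were above the line on each array, none was 2-fold higher than total RNA, and GATA6 was lower in bound RNA. Of 15 fibroblast markers, which feeder cells would bring, 13 were above the line in bound, 12 in unbound and 13 in total RNA, with sums of 35.6, 27.2 and 38.6. Surface ectoderm, which shares TFAP2A and keratins with trophoblast, had 2, 1 and 2 of 5 measured genes above the line and sums of 0.74, 0.23 and 0.30, with KRT5 below the line on every array. The part of these cell types, of culture and of kit in the marker differences was not tested. In bulk RNA, fewer cells of a type and less RNA per cell cannot be told apart.

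**Figure D4:**
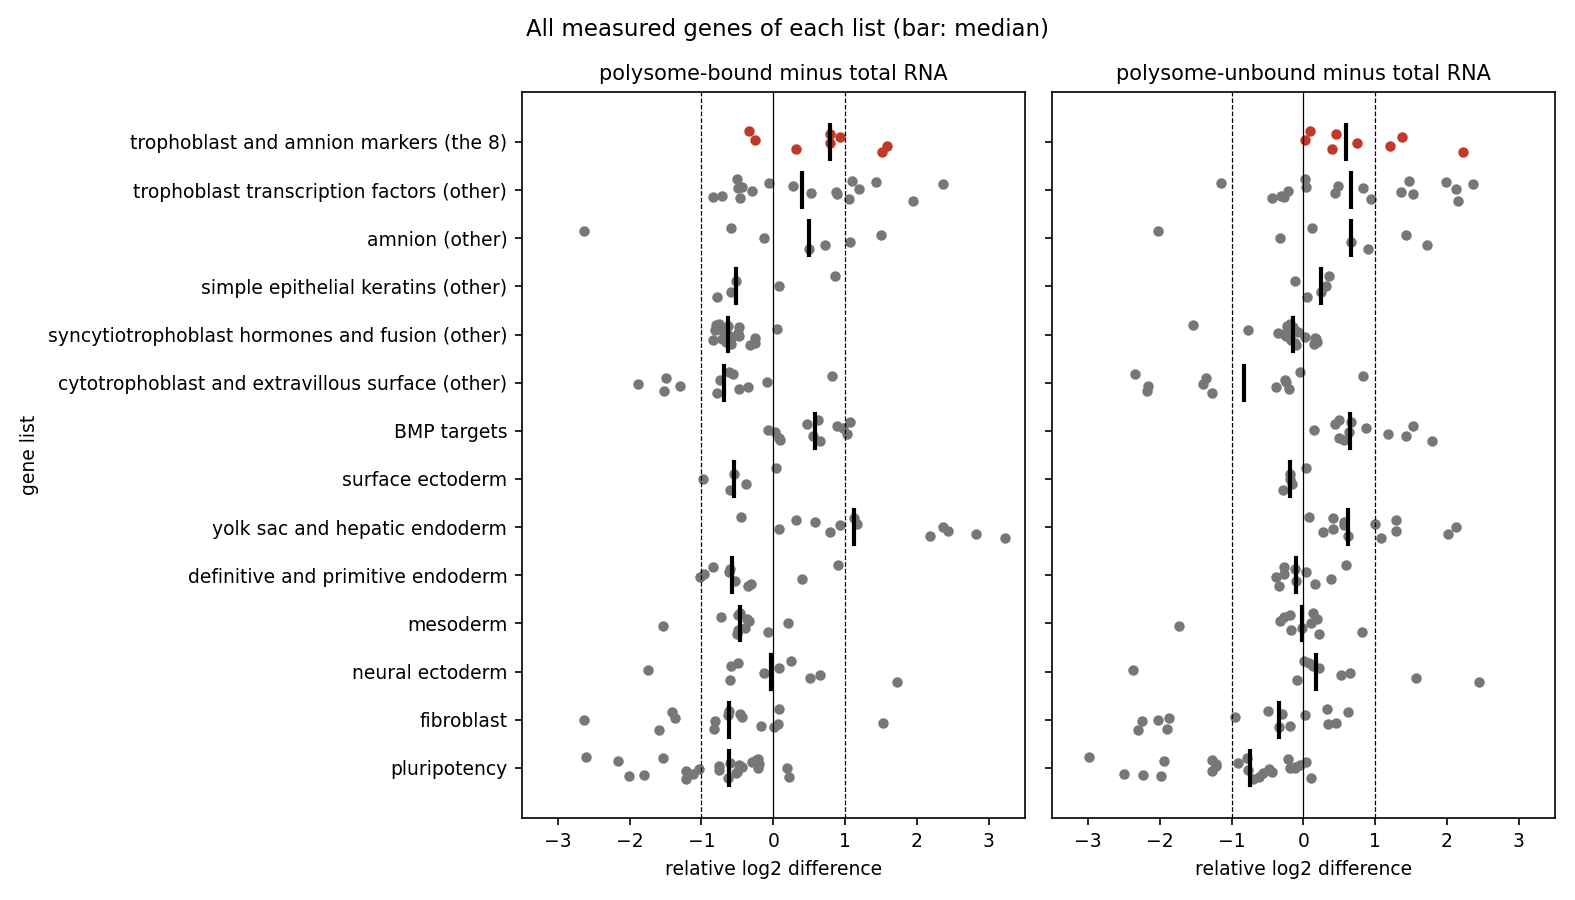
Relative log2 differences to total RNA (x axes) of all measured genes of 14 lists (rows), for polysome-bound RNA on the left and polysome-unbound RNA on the right, 1 point per gene with the list median as a bar and dashed lines at 2-fold. The 8 markers (red), the other trophoblast transcription factors, BMP genes and yolk sac genes have medians above zero on both sides, and pluripotency and cytotrophoblast surface genes have medians below zero.

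Upstream sequences are shown for the markers highest in both pools, and for HAND1, because TFAP2 factors bind promoters and are themselves in the set. RefSeq (GRCh38.p14) promoter windows matched 6 of the 8 genes with 13 start sites in all, and the 250 bases before each start were searched for GCCNNNGGC, a core motif of TFAP2 factors that reads the same on both strands. It was found at 7 of the 13 starts, of VTCN1, HAND1, GATA2 and GATA3, against 19.8% of all 35116 windows. The motif is rich in G and C. The markers' windows had 45.2% to 74.8% GC, and the median over all windows was 58.0%. Only CDX2 and the GATA3 start with 55.6% lay below that median. Windows with a match had 58.4% to 74.8%, all above it, so the share over all windows is not matched for GC. By gene, 4 of 6 had a match. Most of the 7 starts were of GATA2 and GATA3, and the windows of 1 gene are not independent. Capitals mark GCCNNNGGC in VTCN1 (first base at -152 from the start) and HAND1 (at -72). TFAP2A has no such match at the start shown, and there capitals mark TATAAA (at -30), which 10.7% of windows hold on either strand.
VTCN1, chr1:117210928-117211177, minus strand: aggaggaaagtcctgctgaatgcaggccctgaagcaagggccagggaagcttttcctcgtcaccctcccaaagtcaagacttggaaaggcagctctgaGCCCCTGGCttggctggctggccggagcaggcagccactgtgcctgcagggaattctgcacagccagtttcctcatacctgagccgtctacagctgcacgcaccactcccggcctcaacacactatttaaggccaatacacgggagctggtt
HAND1, chr5:154478228-154478477, minus strand: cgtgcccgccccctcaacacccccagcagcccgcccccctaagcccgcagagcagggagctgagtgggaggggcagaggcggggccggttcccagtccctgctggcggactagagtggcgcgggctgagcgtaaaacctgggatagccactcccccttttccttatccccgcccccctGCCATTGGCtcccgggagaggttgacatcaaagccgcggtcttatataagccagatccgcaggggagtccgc
TFAP2A, chr6:10419660-10419909, minus strand: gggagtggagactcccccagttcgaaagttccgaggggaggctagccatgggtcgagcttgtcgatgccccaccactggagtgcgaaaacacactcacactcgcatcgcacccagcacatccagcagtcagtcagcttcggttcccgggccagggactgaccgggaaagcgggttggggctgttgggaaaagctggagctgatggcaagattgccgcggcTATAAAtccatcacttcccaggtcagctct
A match describes the letters in the window and is no evidence of binding in these cells.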

How the data were processed

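Groups followed the labelled sample type, with 1 Affymetrix array each. The values deposited are log2 expression, 1 per probe set. Partek 6.5 and RMA, which corrects background and summarises probes, are named in the submitters' processing notes. Distributions differ between the columns, and how arrays were scaled to each other is unknown. All bound values have 7 decimals and end in the same 2, against at most 5 decimals elsewhere, so a constant may have been added. Relative differences cancel it.

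Platform annotation gave 1 symbol for 19460 of 33297 probe sets, several for 1754 and none for 12083. The probe set with the highest mean stood for a gene. Genes with a mean above 3.84, the 95th percentile of that mean over the background genes, passed the filter and set the array medians. A bound on a fold uses the dim array's background line. Single arrays allow no test, and their number and signal over background limit the precision.

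Members and lists were chosen with earlier results of these data known, among them that TFAP2A and VTCN1 lie above total RNA. Named genes were the members, their paralogs, the 3 highest and 3 lowest of each list and the 2 nearest profiles. SOX2, LIN28A and genes named as below background were picked after their values were seen. List genes without a probe set of their own symbol were not used here. Scripts were tested on simulated data (Python 3.11.15, pandas 2.3.3, statsmodels 0.14.6, numpy 2.4.6, matplotlib 3.10.9).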

Additional observations from a re-analysis of the deposited data

How the results depend on the processing

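Of the 168 values of single markers under 7 alternatives (8 markers in 3 comparisons), 20 differed in sign from the value after centring, 11 of them for bound minus unbound, where no marker was 2-fold apart. All alternatives but lowess and quantile normalization shift the 8 markers of a comparison by the same constant, so the 168 are not independent checks. Averaging probe sets could change only the array medians, since each marker has 1 probe set. In bound minus unbound, 5 changed sign as deposited (TFAP2A, TFAP2C, GATA2, GATA3 and CDX2) and 4 with background centring (all of these but TFAP2A). In the same comparison 1 changed after quantile normalization (GATA2) and 1 without a filter (TFAP2C). In the comparisons with total RNA the 9 changes were of GATA2 and CDX2, neither 2-fold apart. For bound minus total RNA, 2 markers 2-fold apart became 6 as deposited, 5 with centring on the background genes, 5 at 1.5-fold and 1 (VTCN1) at 3-fold, and GATA3 passed 2-fold (1.03) with the filter at the 99th percentile. For bound minus unbound, 0 became 4 as deposited and 1 (TFAP2A, lower) at 1.5-fold. For unbound minus total, 3 became 1 (TFAP2A) at 3-fold, and as deposited VTCN1 was at 0.97. TFAP2A stayed between 1.52 and 2.55 for bound minus total and between 1.997 and 2.43 for unbound minus total, and VTCN1 between 1.57 and 2.62 and between 0.97 and 1.29, over these alternatives. With the 99th percentile as the line, 5 markers were above background in bound and 5 in unbound RNA, in place of 8 each. With olfactory receptors alone as background, all 8 were above the line in total RNA, so the call of HAND1 and CDX2 there depends on the choice of background genes. The split of all genes 2-fold apart moved with the scaling: 97.5% were higher for bound minus unbound as deposited, 39.1% after centring, 40.6% after lowess, 59.7% after quantile normalization and 85.0% with background centring. For bound minus total the shares were 98.6%, 29.3%, 46.7%, 49.1% and 91.1%, and for unbound minus total 25.3%, 44.7%, 55.4%, 43.2% and 52.2%. The cause was not tested. No paired analysis was possible because each source has 1 array.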
